A study of Arabidopsis thaliana and Cucumis sativus and Glycine max with 60 samples.

Results

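Potassium enters Arabidopsis roots through channels and carriers of the epidermis and cortex, crosses to the stele, and is released into the xylem for the shoot. The genes described here encode 7 proteins of this route and of the parallel handling of sodium. They are the uptake channel AKT1 (AT2G26650), its silent partner subunit KC1 (AT4G32650), the high-affinity carrier HAK5 (AT4G13420), the xylem-loading channel SKOR (AT3G02850), the kinase CIPK23 (AT1G30270), the sodium transporter HKT1 (AT4G10310) and the sodium/proton antiporter SOS1 (AT2G01980). They were chosen by locus and are 7 of the 33550 Arabidopsis gene rows deposited.

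The study sequenced mRNA along the growing root tip of 7 plant species in 60 libraries, of which the 9 from Arabidopsis are used here. Seedlings of cultivar Columbia carried no stated mutation or treatment and were taken 4 days after plating, from MS medium set with agarose, in constant light. Each primary root tip was cut along its length into 3 pieces, the zones of meristem (MZ), of elongation (EZ) and of differentiation (DZ), and each zone gave 3 libraries. The number of roots in a library was not given in the sources used here, so p-values measure the spread between these libraries. Values are RPKM, reads scaled by gene length and by library size, which allows levels to be compared between genes. In whole pieces of root, fewer cells of a type and less RNA per cell cannot be told apart.

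As background, AKT1 is an inward channel of the Shaker family that carries much of the potassium taken up when the soil supply is adequate, while HAK5 serves uptake at low supply. Both are activated by CIPK23, a kinase brought to the plasma membrane by the calcium sensors CBL1 and CBL9. SKOR is an outward channel of the pericycle and xylem parenchyma, HKT1 withdraws sodium from the xylem sap into xylem parenchyma cells, and SOS1 exports sodium from the cell under the control of the kinase SOS2 and the sensor SOS3.

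In these root tips all 7 genes were called higher in DZ than in MZ, as were 29.8% of all genes tested, and the levels differed in where along the root they climbed. AKT1 rose at both steps, from MZ to EZ and again from EZ to DZ. KC1, HAK5, SKOR and HKT1 were called higher from EZ to DZ and not from MZ to EZ, and HAK5 and SKOR were at or near 0 RPKM before DZ. HKT1 was nevertheless higher in every EZ library than in every MZ library, and whether that step was called depended on the scale used. HAK5 and SKOR were tested only because they reached 1 RPKM in DZ, and HKT1 was tested largely for that reason. Calls of HAK5, SKOR and HKT1 against DZ, and the count of 7 that holds them, are therefore descriptions. CIPK23 and SOS1 were well above 0 in every library and climbed by less than 2-fold at each step.

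All 7 are protein-coding genes, placed here on build TAIR10.1 of the RefSeq annotation. AKT1 spans chr2:11331850-11336738 on the minus strand with 11 exons, KC1 chr4:15751271-15755047 on the minus strand with 13, and HAK5 chr4:7796782-7802251 on the minus strand with 9. SKOR spans chr3:619678-623739 on the minus strand with 11 exons and CIPK23 chr1:10654800-10658924 on the plus strand with 15. HKT1 spans chr4:6391854-6395922 on the plus strand with 3 exons and SOS1 chr2:457002-463408 on the plus strand with 23. Exons are those of the transcript with the longest coding sequence.

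The 3 Shaker subunits share the potassium filter of the channel pore, and the coding stretch that holds it is printed to show how these members compare in that shared part. The filter is common to potassium channels in general. The stretches come from the RefSeq annotation of build TAIR10.1, 5′ to 3′ on the coding strand, and the 9 capital bases encode the glycine-tyrosine-glycine signature. The AKT1 stretch lies in 1 exon at chr2:11334408-11334464 on the minus strand and holds codons 255 to 257 of 857. The KC1 stretch lies in 1 exon at chr4:15753366-15753422 on the minus strand and holds codons 291 to 293 of 662. The SKOR stretch is split by an intron within chr3:621763-621898 on the minus strand and holds codons 290 to 292 of 828.
AKT1: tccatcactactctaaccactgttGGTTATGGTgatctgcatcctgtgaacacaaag
KC1: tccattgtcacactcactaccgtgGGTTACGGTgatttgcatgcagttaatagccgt
SKOR: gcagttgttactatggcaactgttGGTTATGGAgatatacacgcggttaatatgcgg
Of the 57 bases, 37 are identical between AKT1 and KC1, 37 between KC1 and SKOR, and 35 between AKT1 and SKOR. All 3 genes keep the signature, although KC1 alone does not form a working channel and is known for retuning AKT1 in a shared tetramer.

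AKT1 was at 7.18, 10.1 and 6.47 RPKM in the 3 MZ libraries, at 24.6, 27.6 and 35.8 RPKM in EZ and at 58.3, 75.3 and 64.6 RPKM in DZ. The 3 zones did not overlap, and every EZ library lay above every MZ library and below every DZ library. The means were 7.93 ± 1.95, 29.4 ± 5.81 and 66.0 ± 8.61 RPKM (SD, n = 3), so the EZ mean was 44.5% and the MZ mean 12.0% of the DZ mean. On the log2(RPKM + 1) scale AKT1 rose by 1.77 ± 0.21 (SE) from MZ to EZ, with a Benjamini-Hochberg adjusted p of 0.000609 from limma. From EZ to DZ it rose by 1.15 ± 0.21, with an adjusted p of 0.00214 from limma. AKT1 shares its last 9 bases with the gene KCS11 on the opposite strand, which was at 20.3 to 33.1 RPKM in MZ and at 6.0 to 9.0 RPKM in DZ.

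KC1 was at 7.05, 12.0 and 6.44 RPKM in MZ, at 9.47, 12.3 and 15.3 RPKM in EZ and at 41.4, 53.5 and 53.1 RPKM in DZ. MZ and EZ overlapped, and all 3 DZ libraries stood above both. KC1 did not pass the threshold between MZ and EZ (log2 change 0.51 ± 0.26, adjusted p = 0.117, limma). It rose by 1.93 ± 0.26 from EZ to DZ, with an adjusted p of 0.000513 from limma.

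The balance of the 2 subunits differed between the zones. The ratio of KC1 to AKT1, both in RPKM, was 0.982, 1.19 and 0.995 in MZ, 0.385, 0.445 and 0.427 in EZ and 0.710, 0.711 and 0.822 in DZ. The ratio was thus highest in MZ, lowest in EZ and intermediate in DZ, with no overlap between zones. The ratio is a description of the libraries and was not tested. Whole reads were recovered for AKT1 but not for KC1, so it is not known whether both were counted alike, and the ratio is compared between zones and not with 1.

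**Figure D1:**
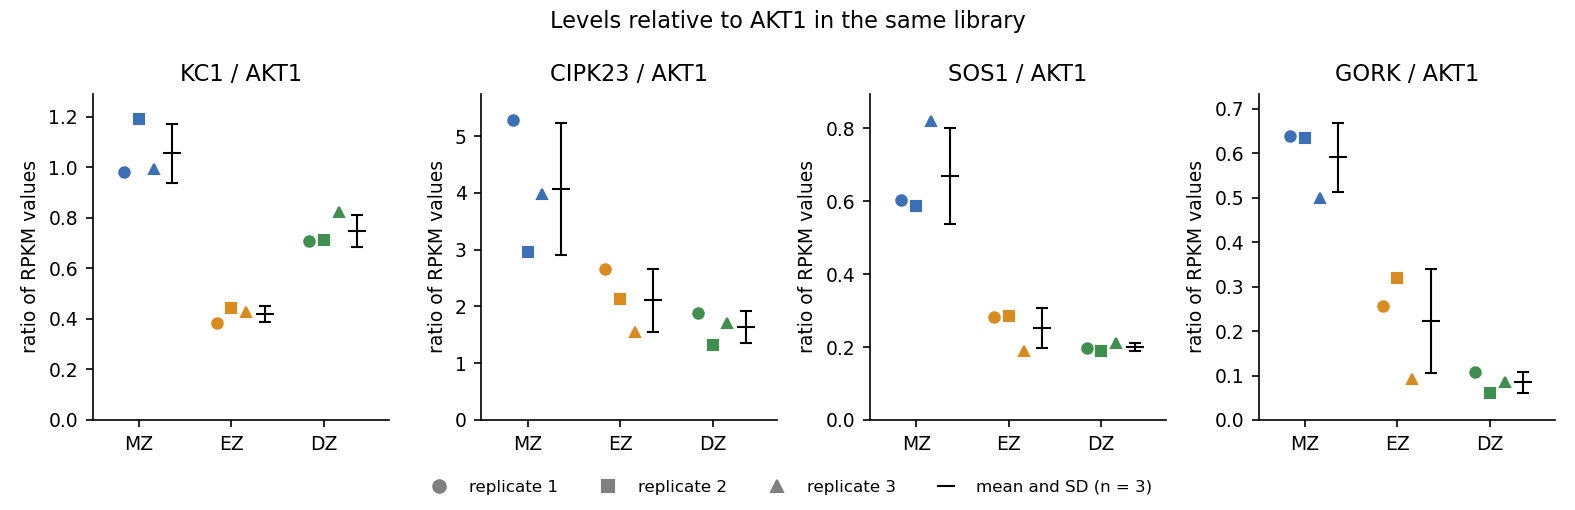
Ratio of the RPKM of KC1, CIPK23, SOS1 and GORK to that of AKT1 in the same library, by zone, with points for the 3 libraries and bars for the mean and SD. KC1 over AKT1 has its lowest values in EZ (0.385 to 0.445), while the other ratios are highest in MZ.

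CIPK23, the kinase that activates AKT1, had the highest level of the 7 genes in every library. It was at 37.9, 30.0 and 25.7 RPKM in MZ, at 65.5, 58.8 and 55.6 RPKM in EZ and at 109.7, 99.4 and 109.8 RPKM in DZ. The zones did not overlap, and in DZ the mean of CIPK23 was above that of 95.2% of all Arabidopsis genes in the table. Its log2 change was 0.93 ± 0.17 from MZ to EZ (adjusted p = 0.00252, limma) and 0.82 ± 0.17 from EZ to DZ (adjusted p = 0.00402, limma). Both steps missed the 2-fold threshold, and only the whole span from MZ to DZ was called, at 1.75 ± 0.17 (adjusted p = 4.55e-05, limma). Without MZ replicate 1 the first step reached 1.08, and it was called.

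The 2 sensors that bring CIPK23 to the membrane are set side by side here, and the difference between their changes was not tested. CBL1 was at 11.8, 11.2 and 14.0 RPKM in MZ, at 27.7, 30.4 and 38.3 RPKM in EZ and at 44.4, 45.3 and 42.8 RPKM in DZ, and it rose by 1.31 ± 0.16 from MZ to EZ (adjusted p = 0.000662, limma). CBL9 was at 33.7, 33.3 and 39.1 RPKM in MZ and at 28.3, 24.8 and 23.2 RPKM in DZ, and its log2 change from MZ to DZ of -0.46 ± 0.15 was under the 2-fold threshold (adjusted p = 0.0194, limma). CBL9 was thus the higher of the pair in every MZ library and CBL1 in every DZ library.

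HAK5, the high-affinity carrier, was at 0 RPKM in all 3 MZ libraries, at 0.0435, 0 and 0.0152 RPKM in EZ, and at 2.92, 2.15 and 1.41 RPKM in DZ. The values correspond to 0 reads in each MZ library, to 1, 0 and 1 reads in EZ and to 60, 143 and 80 reads in DZ. With a floor of 3 reads over the 3 MZ libraries, which is worth 0.0195 RPKM, DZ was at least 101-fold higher than MZ. This bound covers counting error only. HAK5 rose by 1.60 ± 0.18 on the log2(RPKM + 1) scale from EZ to DZ (adjusted p = 0.00026, limma), a scale that understates the change of so low a gene. HAK5 was tested only because it reached 1 RPKM in DZ, so it had to differ and the result is a description. It remained the lowest of the 7 genes in DZ by its mean, 2.16 ± 0.752 RPKM (SD, n = 3).

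SKOR, the xylem-loading channel, was at 0.139, 0.0272 and 0.0528 RPKM in MZ, at 0.0440, 0.0160 and 0.369 RPKM in EZ and at 7.19, 11.9 and 5.58 RPKM in DZ. Reads numbered 3, 2 and 3 in MZ, 1, 1 and 24 in EZ and 146, 783 and 312 in DZ, so 24 of the EZ reads came from replicate 3 and 1 from each of the others. The EZ mean was 1.74% of the DZ mean. From EZ to DZ, SKOR had a log2 change of 2.97 ± 0.26 (adjusted p = 9.46e-05, limma), and 4.22% of all tested genes rose more at this step. SKOR reached 1 RPKM only in DZ and was tested for that reason, so it had to differ and these values are descriptions. Between MZ and EZ it did not pass the threshold (0.08 ± 0.26, adjusted p = 0.806, limma), and without EZ replicate 3 that estimate was -0.06. SKOR shares its last 9 bases with AT3G02840 on the opposite strand, which was at 1.47 to 1.86 RPKM in DZ, below SKOR in all 3 libraries.

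HKT1, which retrieves sodium from the xylem, was at 0, 0.0629 and 0.190 RPKM in MZ, at 0.475, 0.738 and 1.07 RPKM in EZ and at 2.81, 6.80 and 1.99 RPKM in DZ. Its reads numbered 0, 3 and 7 in MZ, 7, 30 and 45 in EZ and 37, 290 and 72 in DZ. The zones did not overlap, but DZ replicate 2 was far above the other DZ libraries. Outside DZ, HKT1 reached 1 RPKM only in EZ replicate 3. It was tested largely because of its DZ values, so the tests of HKT1 against DZ are descriptions. HKT1 was called higher from EZ to DZ (1.35 ± 0.33, adjusted p = 0.00903, limma). Without DZ replicate 2 the change was 0.95, under 2-fold. Without the 3 libraries numbered 1, which were the shallowest, the adjusted p was 0.0767 (limma), the highest of the 19 refits, where it began at 0.00535. From MZ to EZ its change of 0.69 ± 0.33 did not pass (adjusted p = 0.104, limma). The log2(RPKM + 1) scale understates the change of so low a gene here too. With 0.1 or 0.5 RPKM added in place of 1, this step was called, at 2.30 and 1.09 (adjusted p = 0.0122 and 0.0436, limma).

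The sodium filter of HKT1 holds a serine where related potassium-permeable transporters hold a glycine. Its codon, number 68 of 506, is shown in capitals within the coding stretch at chr4:6392185-6392235, plus strand, TAIR10.1.
HKT1: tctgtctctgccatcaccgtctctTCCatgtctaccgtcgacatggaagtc
This stretch names the residue by which HKT1 is placed among the sodium-selective members, and the RNA values carry no information on selectivity.

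SOS1, the antiporter that exports sodium, was at 4.32, 5.95 and 5.31 RPKM in MZ, at 6.96, 7.83 and 6.79 RPKM in EZ and at 11.5, 14.3 and 13.7 RPKM in DZ. The zones did not overlap. Its log2 change was 0.41 ± 0.18 from MZ to EZ (adjusted p = 0.0789, limma) and 0.78 ± 0.18 from EZ to DZ (adjusted p = 0.00661, limma), both under 2-fold. From MZ to DZ it rose by 1.19 ± 0.18 (adjusted p = 0.000332, limma), the smallest change of the 7 genes over the whole span.

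The partners of SOS1 were measured in the same libraries. SOS3, the calcium sensor, was at 8.10, 5.85 and 10.8 RPKM in MZ, at 17.4, 9.56 and 14.3 RPKM in EZ and at 46.8, 28.5 and 48.1 RPKM in DZ, and it rose by 1.51 ± 0.30 from EZ to DZ (adjusted p = 0.00337, limma). SOS2, the kinase, was at 4.42 to 4.82 RPKM in MZ, 5.94 to 8.13 RPKM in EZ and 6.29 to 8.51 RPKM in DZ and was called at neither step, with log2 changes of 0.46 ± 0.19 and 0.12 ± 0.19 (adjusted p = 0.0695 and 0.632, limma). CBL10, a sensor known to act with SOS2 mainly in shoots, moved the other way, from 14.3, 8.92 and 13.1 RPKM in MZ to 0.847, 0.445 and 0.107 RPKM in DZ. On the log2 scale it fell by 3.17 from MZ to DZ, with a standard error of 0.37 (adjusted p = 0.000105, limma).

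**Figure D2:**
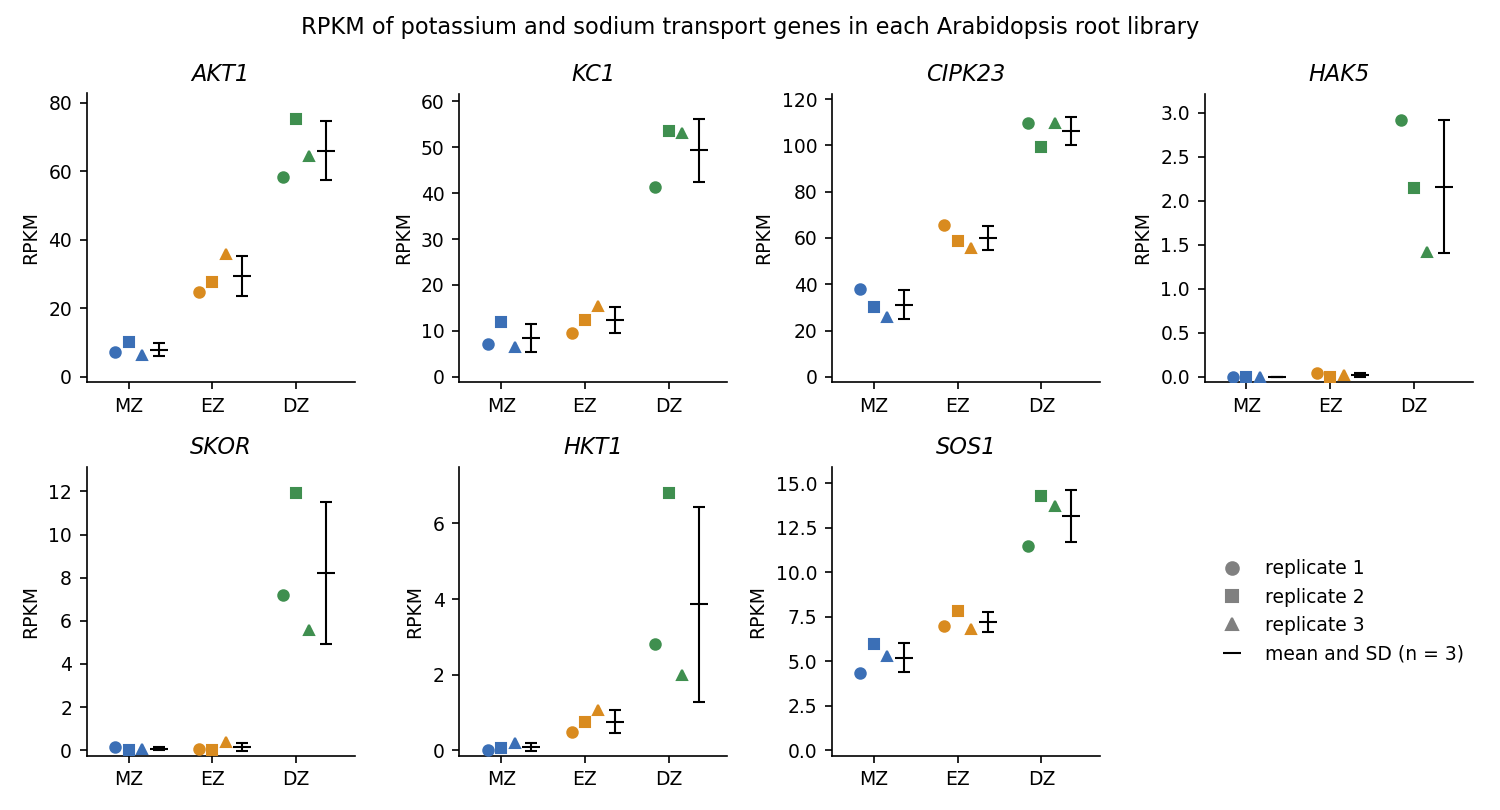
RPKM of the 7 genes in each of the 9 libraries, on linear axes from 0, with points for the 3 libraries of each zone and bars for the mean and SD. AKT1 climbs in steps from 7.93 to 29.4 to 66.0 RPKM, while HAK5 and SKOR sit at or near 0 in MZ and EZ and are raised in DZ.

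Set in order by their means, the DZ levels ran from CIPK23 (106 RPKM) through AKT1 (66.0), KC1 (49.3), SOS1 (13.2), SKOR (8.23) and HKT1 (3.86) to HAK5 (2.16). Neighbours in this order from CIPK23 down to SOS1 did not overlap in their libraries. SOS1 and SKOR, SKOR and HKT1, and HKT1 and HAK5 did overlap. In MZ the order began with CIPK23 (31.2 RPKM), KC1 (8.51), AKT1 (7.93) and SOS1 (5.20), and KC1 and AKT1 overlapped. Because it is not known whether KC1 was counted like the other genes, its place in both orders, beside AKT1 above all, is not established.

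Across the 7 genes, 1 was called higher from MZ to EZ, 5 from EZ to DZ and 7 from MZ to DZ, where a call needs 2-fold or more and an adjusted p below 0.05. Of the 19640 genes tested, 18.3% were called higher and 20.4% lower from MZ to EZ. From EZ to DZ 19.6% were called higher and 16.4% lower. From MZ to DZ 29.8% were called higher and 32.3% lower. None of the 7 genes was called lower by limma in any comparison, and none had a negative change at an unadjusted p under 0.05 (0 in each). At that unadjusted p 3, 7 and 7 of them were higher. All 7 passed the filter of at least 1 RPKM in 3 libraries, but HAK5 and SKOR passed only through DZ, and HKT1 through DZ and 1 EZ library. The filter favoured high DZ values in such genes, so the counts and the tests of these genes against DZ are given as a description. The 3 comparisons share libraries and are not independent.

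**Figure D3:**
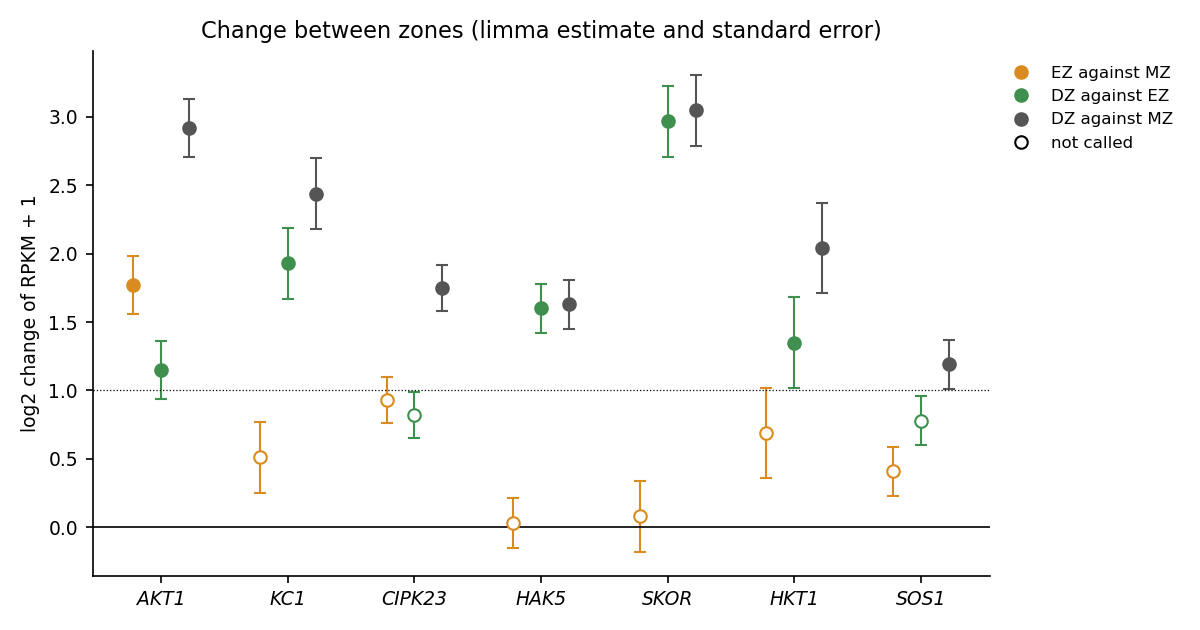
Change of log2(RPKM + 1) of each gene in the 3 comparisons, as the limma estimate with its standard error. Filled points were called (adjusted p below 0.05 and 2-fold or more, dotted line at 1). AKT1 is the only gene filled from MZ to EZ (1.77), and SKOR has the highest point from EZ to DZ (2.97).

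The MZ and DZ pieces carried markers of their zones, none of the lists was of markers of EZ alone, and some libraries stood apart. Summed RPKM of the 4 meristem markers was 184 to 243 in MZ, 6.72 to 35.5 in EZ and 1.68 to 32.4 in DZ. That of the 4 markers of root hair cells was 2.37 to 9.01, 86.5 to 397 and 872 to 1102, and that of the 4 markers of the differentiated endodermis 10.3 to 40.5, 49.7 to 691 and 3765 to 8261. The 3 root cap markers summed to 19.3 to 81.3 in MZ and to at most 6.18 elsewhere. DZ replicate 1 held the highest DZ sums of the meristem and root cap markers, 32.4 and 6.18. DZ replicates 2 and 3 were at 6.64 and 1.68 for the meristem markers and at 0.192 and 0.0377 for the root cap markers. The 3 green tissue markers summed to 1.25 to 14.3 in MZ, 0.63 to 3.95 in EZ and 18.9 to 38.6 in DZ, with GL1 at 0 in all libraries. The part of these cell types in the changes of the 7 genes was not tested. On a line through all tested genes from the mean of MZ (0) to that of DZ (1), the position was 0.365 for EZ replicate 1, 0.371 for replicate 2 and 0.700 for replicate 3. Estimated depth was 6.60 to 7.38 M reads for replicate 1 of each zone and 18.2 to 23.9 M for the other 6 libraries.

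EZ replicate 3 also had the highest EZ values of AKT1, KC1, SKOR and HKT1, and its part in these results was not tested. It had the lowest EZ values of CIPK23 and SOS1, 55.6 and 6.79 RPKM, and the middle one of HAK5. Without it 1 of the 7 genes was called from MZ to EZ and 5 from EZ to DZ. AKT1 then had changes of 1.62 and 1.30, KC1 of 0.36 and 2.08, and SKOR from EZ to DZ of 3.10.

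The spread within DZ was wider for SKOR, HKT1 and HAK5 than for the other members. DZ replicate 2 was at 1.45 times the zone mean for SKOR and 1.76 times for HKT1, while AKT1, KC1, CIPK23 and SOS1 lay between 0.839 and 1.14 times their means in every DZ library. Among the 5 stele markers the phosphate exporter PHO1 had 38.2, 77.7 and 26.6 RPKM in the 3 DZ libraries, which is the order of SKOR and HKT1. WOL, SHR and XCP1 were also highest in DZ replicate 2, by at most 1.14 times their means, and APL in DZ replicate 1. The summed stele markers were 224, 266 and 193 RPKM in the same libraries, against 53.2 to 59.5 RPKM in MZ and 113 to 214 RPKM in EZ. This sum includes PHO1, so its order is not independent of that of PHO1. HAK5 did not follow this order and was highest in DZ replicate 1. The part of stele content in the SKOR and HKT1 values was not tested.

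**Figure D4:**
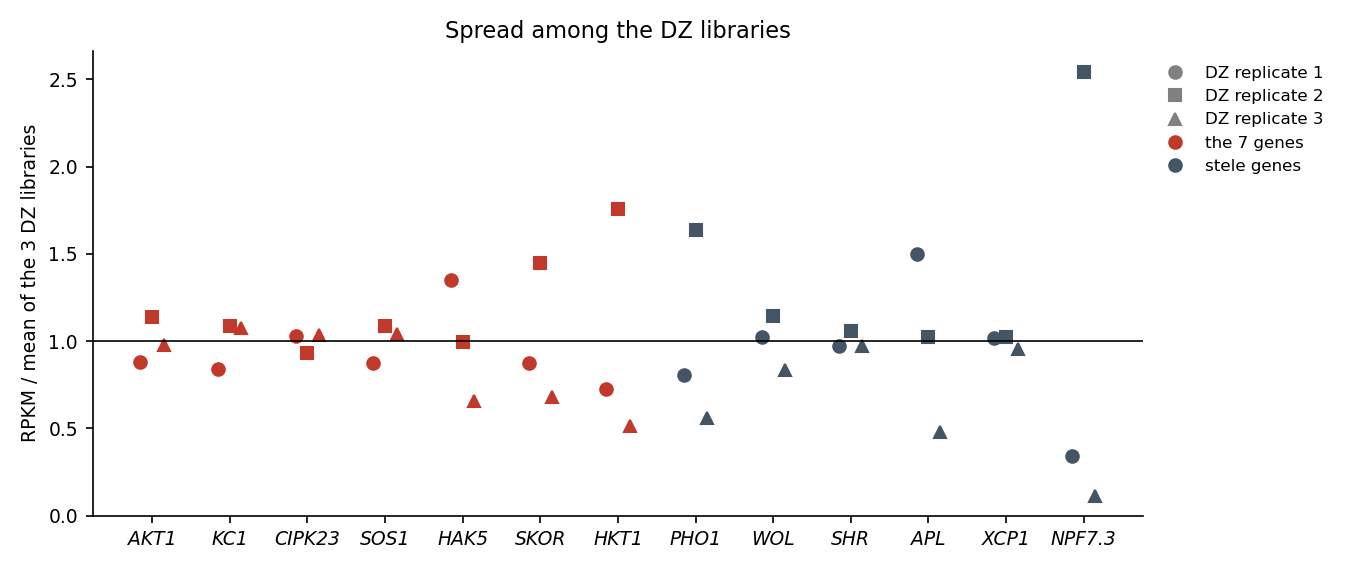
RPKM in each DZ library divided by the mean of the 3 DZ libraries, for the 7 genes, the 5 stele markers (PHO1, WOL, SHR, APL and XCP1) and the xylem-loading carrier NPF7.3. Squares mark DZ replicate 2, which is the highest library for SKOR (1.45), HKT1 (1.76), PHO1 (1.64) and NPF7.3 (2.54).

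The 250 bases before the annotated start are printed for HAK5, SKOR and HKT1, the genes whose RNA was at or near 0 in MZ. They come from RefSeq, TAIR10.1, and are written 5′ to 3′ on the gene's strand. HAK5 lies on the minus strand with its region at chr4:7802252-7802501, SKOR on the minus strand at chr3:623740-623989, and HKT1 on the plus strand at chr4:6391604-6391853. Capitals mark matches, on either strand, to the TATA box core TATAAA, the auxin response element TGTCTC and the G-box CACGTG, and none of these matches overlap.
HAK5: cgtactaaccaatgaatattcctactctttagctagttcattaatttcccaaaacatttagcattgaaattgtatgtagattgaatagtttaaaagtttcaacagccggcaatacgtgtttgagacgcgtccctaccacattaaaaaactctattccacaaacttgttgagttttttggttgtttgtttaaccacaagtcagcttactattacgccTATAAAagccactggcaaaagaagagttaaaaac
SKOR: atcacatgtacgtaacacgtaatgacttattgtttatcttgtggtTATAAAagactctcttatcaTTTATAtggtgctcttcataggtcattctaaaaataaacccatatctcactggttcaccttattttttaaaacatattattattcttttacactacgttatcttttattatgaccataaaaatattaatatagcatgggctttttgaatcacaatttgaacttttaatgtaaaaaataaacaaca
HKT1: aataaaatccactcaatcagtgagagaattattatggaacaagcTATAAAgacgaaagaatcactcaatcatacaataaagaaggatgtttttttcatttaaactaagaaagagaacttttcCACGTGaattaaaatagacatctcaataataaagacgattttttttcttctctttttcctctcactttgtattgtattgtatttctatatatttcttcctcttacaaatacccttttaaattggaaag
HAK5 holds TATAAA with its first base 34 bases before the start. SKOR holds it 205 bases before the start and, on the other strand, 185 bases before. HKT1 holds it 206 bases before the start and the G-box 128 bases before. TATAAA occurs in the corresponding region of all 7 genes and of 47.3% of 27443 protein-coding genes. CACGTG occurs in HKT1 and SOS1, and in 6.49% of genes. TGTCTC occurs in 0 of the 7 and in 10.9% of genes. None of the 7 regions overlaps another annotated gene. These matches are descriptions of the sequence and were not tied to the RNA values.

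Beyond the 7 genes, 78 further genes of potassium and sodium transport families were listed, of which 64 passed the filter. From MZ to EZ 13 of the 64 were higher and 1 lower, or 20.3% and 1.56%. From EZ to DZ 22 were higher and 5 lower, or 34.4% and 7.81%. From MZ to DZ 29 were higher and 5 lower, or 45.3% and 7.81%. The median log2 change of the 64 was 0.40, 0.50 and 0.92, against 0.03, -0.13 and -0.16 over all tested genes. Without EZ replicate 3 the counts from EZ to DZ were 25 and 7, and the single gene lower from MZ to EZ was no longer called. Of the 64, CBL8, CIPK4, CIPK16, CIPK17, CIPK18, CIPK19, CIPK22 and NPF7.3 passed the filter only with the help of DZ libraries. The filter thus favoured high DZ values in these 8 genes, and their changes are descriptions. From EZ to DZ 7 of the 8 were called higher, and CIPK22 was not (0.47 ± 0.18, adjusted p = 0.0501, limma). Among the other 56, 15 were higher and 5 lower from EZ to DZ, and 21 and 5 from MZ to DZ.

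The CIPK kinases, the family of CIPK23, held 6 of the 13 increases from MZ to EZ, 10 of the 22 from EZ to DZ and 16 of the 29 from MZ to DZ. These are counts of the other 24 CIPK genes tested, while 18.3%, 19.6% and 29.8% of all tested genes were higher in these comparisons. The count from EZ to DZ includes CIPK4, CIPK16, CIPK17, CIPK18 and CIPK19, in which the filter favoured high DZ values. The count from MZ to DZ includes these and CIPK22, so both counts are descriptions. CIPK6 reached 461 ± 15.1 RPKM in DZ from 54.3 ± 7.47 RPKM in MZ (SD, n = 3), above CIPK23 in both zones. CIPK9, a kinase tied to potassium homeostasis, went from 0.446, 0.109 and 1.02 RPKM in MZ to 8.50, 8.14 and 22.4 RPKM in EZ (log2 change 3.10 ± 0.38, adjusted p = 0.000666, limma). CIPK4 went from at most 1.50 RPKM in MZ and EZ to 14.8, 24.9 and 16.8 RPKM in DZ (3.72 ± 0.34 from EZ to DZ, adjusted p = 0.000112, limma). CIPK11, a kinase known to act on the plasma membrane proton pump, rose by 2.83 from MZ to EZ and by 1.09 from EZ to DZ (adjusted p = 0.000633 and 0.0239, limma).

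Of the 8 CBL sensors tested, 4 were higher and 1 lower from MZ to DZ, where 29.8% of all tested genes were higher and 32.3% lower. The 4 include CBL8, which passed the filter only with the help of DZ libraries, so this count is a description. CBL6 rose by 2.65 from MZ to EZ and by 1.50 from EZ to DZ (adjusted p = 0.000525 and 0.00286, limma). CBL8 went from at most 1.08 RPKM in MZ and EZ to 11.4, 10.7 and 17.9 RPKM in DZ. CBL1, SOS3 and CBL10 are given above.

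Among the carriers related to HAK5, the KT/HAK/KUP family, all 13 genes passed the filter. Of the 12 others, 4 were higher from EZ to DZ, namely KUP6, KUP8, KUP9 and KUP10, where 19.6% of all tested genes were higher. The median log2 change of the 13 at this step was -0.28, against -0.13 over all tested genes. KUP9 was not called without the 3 libraries numbered 1 (adjusted p = 0.056, limma). KUP6, which mediates potassium efflux, was at 8.46 to 8.99 RPKM in MZ, 10.8 to 13.7 RPKM in EZ and 61.1, 64.2 and 69.8 RPKM in DZ, and it rose by 2.34 ± 0.14 from EZ to DZ (adjusted p = 2.03e-05, limma). Its DZ level was thus far above that of HAK5 in each library. KUP4, known for its part in root hair growth, was at 17.4 ± 1.75, 31.0 ± 4.23 and 26.0 ± 2.20 RPKM (SD, n = 3) in MZ, EZ and DZ and was called at neither step. KUP5 was highest in EZ, at 48.5 ± 6.16 RPKM (SD, n = 3), and was higher there than in MZ by 1.23 (adjusted p = 0.000826, limma). KUP12 was lower in DZ than in MZ by limma, with a change of -1.68 (adjusted p = 0.000257), and KUP3 with one of -1.27 (adjusted p = 0.0101). Without DZ replicate 3 the change of KUP3 was -0.93 and was not called.

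The other Shaker channel that passed the filter, GORK, is an outward channel of root hairs and guard cells. It was at 4.58, 6.43 and 3.23 RPKM in MZ, at 6.30, 8.84 and 3.32 RPKM in EZ and at 6.25, 4.56 and 5.56 RPKM in DZ. The zones overlapped, and its log2 changes of 0.27 ± 0.33 and -0.08 ± 0.33 did not pass (adjusted p = 0.498 and 0.858, limma). The latter was 0.19 without EZ replicate 2 and 0.03 without DZ replicate 2. The remaining 5 Shaker genes did not pass the filter, and KAT2 was at 0 RPKM in all libraries.

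Among the NHX and KEA antiporters the patterns were mixed. NHX1, a vacuolar sodium (potassium)/proton antiporter, was at 8.46, 7.62 and 17.0 RPKM in MZ, at 67.0, 81.2 and 114 RPKM in EZ and at 119, 134 and 153 RPKM in DZ, and it rose by 2.93 ± 0.30 from MZ to EZ (adjusted p = 0.000508, limma). NHX2, its close relative, was at 12.1 ± 1.14, 11.2 ± 3.23 and 5.99 ± 2.01 RPKM (SD, n = 3) and was called at neither step. Its change from MZ to DZ of -0.94 (adjusted p = 0.00932, limma) was under 2-fold. Without DZ replicate 1 it was called, at -1.02 from EZ to DZ and -1.15 from MZ to DZ. NHX4 rose by 1.62 and by 1.39 at the 2 steps (adjusted p = 0.00407 and 0.00791, limma), but without the 3 libraries numbered 1 the latter was 1.26 and was not called (adjusted p = 0.0876, limma). Of the 6 KEA antiporters KEA3 was higher from EZ to DZ (1.63, adjusted p = 0.00282, limma), and KEA6 and KEA4 were lower (-1.50 and -1.02, adjusted p = 0.000316 and 0.00108, limma). Of all tested genes, 19.6% were higher and 16.4% lower from EZ to DZ. KEA4 lay at the 2-fold threshold and was -0.96 to -1.13 with 1 library left out.

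Of 6 other carriers listed, 3 were tested, and from EZ to DZ 2 were higher and 1 lower. Of all tested genes, 19.6% were higher and 16.4% lower at this step. The 2 include NPF7.3, which passed the filter only with the help of DZ libraries, so this count is a description. CHX17, a cation/proton exchanger of root cells, was at 0.129 to 0.366 RPKM in MZ, at 2.92, 2.58 and 4.79 RPKM in EZ and at 40.4, 56.6 and 70.1 RPKM in DZ. It rose by 3.68 ± 0.27 from EZ to DZ (adjusted p = 4.73e-05, limma). NPF7.3, which loads nitrate and potassium into the xylem, was at most 0.610 RPKM before DZ and at 8.39, 62.0 and 2.75 RPKM in DZ. Its change from EZ to DZ was 3.31 ± 0.84 (adjusted p = 0.0105, limma), and it was 2.18, still called, without DZ replicate 2. Without the 3 libraries numbered 1 it was 3.46 and was no longer called (adjusted p = 0.0805, limma). CCC1, a cation-chloride cotransporter, fell by 1.18 from EZ to DZ (adjusted p = 0.00143, limma).

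**Figure D5:**
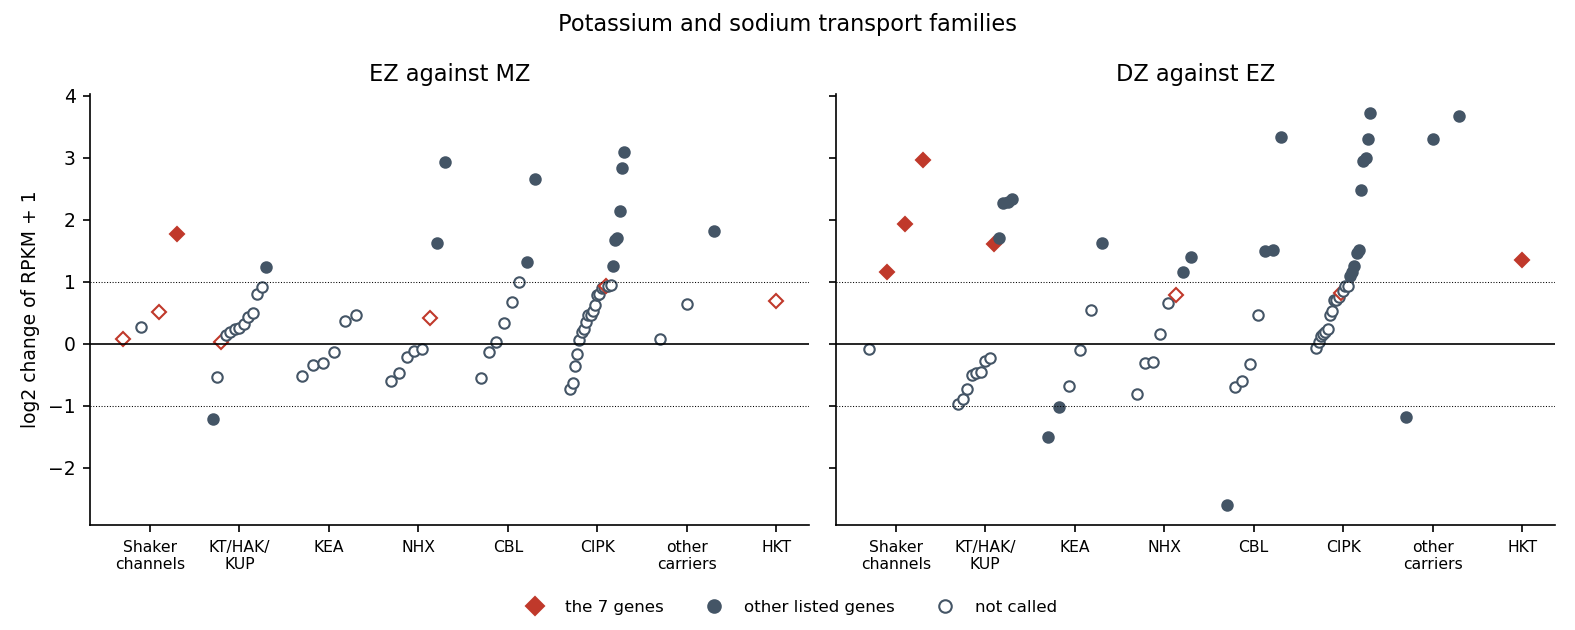
Change of log2(RPKM + 1) of tested genes of the Shaker, KT/HAK/KUP, KEA, NHX, CBL, CIPK and HKT families and of other carriers, from MZ to EZ and from EZ to DZ, with diamonds for the 7 genes, circles for the other listed genes and open symbols for those not called. Filled CIPK circles lie only above 0 in both panels, while the KEA and CBL families hold filled circles on both sides of 0 from EZ to DZ.

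The genes most like each member in pattern were taken by Pearson's r of log2(RPKM + 1) over the 9 libraries, which share zones and depth, so many genes reach high values. For AKT1 they were AT5G65290 (r = 0.997), SDP1 (0.996) and CYP81D3 (0.995). For KC1 they were B73 (0.994), VPS34 (0.993) and AT1G10050 (0.993). For CIPK23 they were ECH2 (0.995), YSL3 (0.995) and AT2G38000 (0.991). For HAK5 they were AT3G27250 (0.999), AT3G49070 (0.996) and GA2OX4 (0.996). For SKOR they were AT3G25190 (0.999), AT3G61390 (0.998) and UMAMIT12 (0.998). For HKT1 they were CYP71B37 (0.987), CRK1 (0.986) and UMAMIT41 (0.984), and for SOS1 AT1G55265 (0.991), AT3G62010 (0.990) and D2HGDH (0.989). The number of genes with r of at least 0.95 ran from 147 for HKT1 to 1270 for AKT1.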

How the data were processed

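RNA from the 3 root zones was sequenced on libraries from an Illumina TruSeq kit, per the labels. FastQC and TopHat2 were run, per the submitters' processing notes, and reads were mapped with the annotation of Ensembl release 19, TAIR10, per the labels. Versions, the counting tool, gene lengths and the kit's handling of strand were not given in the sources used here. The authors deposited RPKM values, with no read counts, in a table that stacks 6 species under 9 columns. The Arabidopsis rows were read by locus. The second deposited table was not used here.

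Because low RPKM values are whole multiples of what 1 read is worth, relative depth and reads were recovered from them, within 0.003 reads or a share of 2.4e-05. This gave whole reads for 71.1% of 25488 genes above 0, too few for a count test, and for 6 of the 7 members. KC1 gave none. At the estimated depths 1 read on 1 kilobase was worth 0.0419 to 0.151 RPKM. Floors cover counting error only.

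Tests covered genes that reached 1 RPKM in 3 or more of the 9 libraries. They used R 4.3.3 with limma 3.58.1 on values of log2(RPKM + 1), with mean trend and robust estimation, all 9 libraries in 1 fit, two-sided. Adjustment was by Benjamini-Hochberg over all 19640 genes, and errors of log2 changes are limma's standard errors. The script was tested on simulated data. Tables and plots used Python 3.11.15, pandas 2.3.3, NumPy 2.4.6 and matplotlib 3.10.9. Gene positions and sequences are RefSeq's, build TAIR10.1.

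One listed gene is counted but not reported by name. The members and lists were chosen with earlier results of these data known. Genes named are the 7 members, 9 set partners (CBL1, CBL9, SOS2, SOS3, GORK, KUP4, NHX1, NHX2 and NPF7.3), called genes among the 3 largest changes per direction, list and comparison, and the 3 genes most correlated with each member. KUP8, CIPK17, CIPK18, CIPK22, KAT2, KCS11 and AT3G02840, and the cell type markers, were named outside this rule, after their values were seen. Alternatives were other pseudocounts, filters, a quantile normalization, fits without trend, on 2 zones or with the replicate number as a block, and leaving out libraries.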

Additional observations from a re-analysis of the deposited data

How the results depend on the processing

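Of the member results, 386 of the refits kept direction and side of the threshold. The number of the 7 genes called higher from MZ to EZ was 1, and 2 with a pseudocount of 0.1 or 0.5, where HKT1 was called (2.30 and 1.09), and 2 without the 3 libraries numbered 1, where CIPK23 was called (1.01). With 1 library left out it was 1 to 2. The cause was not tested. Changes near 0 from MZ to EZ turned sign. HAK5 was -0.02 with quantile normalization. SKOR was -0.14 with it, -0.07 without the 3 libraries numbered 3, and -0.06 to 0.16 with 1 library left out. NPF7.3 was -0.23, -0.15 and -0.07 to 0.19 in the same 3 cases. NHX2 was 0.06 without the libraries numbered 3. From EZ to DZ, SOS2 was -0.02 with quantile normalization and -0.05 without the libraries numbered 3, and GORK was -0.40 to 0.19 with 1 library left out. From MZ to DZ, GORK was -0.02 without the libraries numbered 3 and -0.00 to 0.40 with 1 left out. None of these was called. Of the 64 other pathway genes, the number lower from MZ to EZ was 2 without the libraries numbered 3 and 0 to 1 with 1 library left out. The number lower from MZ to DZ was 3 without the libraries numbered 3 and 3 to 6 with 1 left out. These refits of the other pathway genes were chosen after seeing the data. HAK5 was not tested under the filter of a mean of at least 1 RPKM, so that refit has 6 members.

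The replicate numbers were not taken to pair the samples. Deviations of same-numbered libraries correlated at 0.088 to 0.458 over 9 pairs, against -0.433 to 0.224 over 18 other pairs, and in 17 of 18 cases a library's best match in another zone had its own number, a hint from the data only. With the replicate block 1, 5 and 7 members were called higher, as without it, and genes called higher numbered 3667, 3919 and 5861, against 3596, 3857 and 5855. The block changed no call of the 7 genes.

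Depth limits HAK5, SKOR and HKT1 in MZ and EZ, where a library held 0 to 45 of their reads.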

Other observations

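NPF7.2, a nitrate carrier that unloads the xylem, was chosen after its values were seen. It was at 47.9 RPKM in EZ replicate 3 and at 0.157 to 1.46 RPKM in the other 8 libraries. It did not pass the filter, so no test was made. EZ replicate 3 is the library that lay closest to DZ among the EZ libraries, yet NPF7.2 was at 0.485 to 1.46 RPKM in DZ.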
